A study of Homo sapiens with 24 samples.

Results

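This account follows 10 genes whose products are in wide use as cancer stem cell (CSC) markers or as pluripotency and self-renewal factors. They are the surface proteins CD44, CD24, PROM1 (CD133), ITGA6 (CD49f), ALCAM (CD166) and CXCR4, the factors SOX2, KLF4 and BMI1, and the intermediate filament nestin (NES). The members were found by their gene symbol in a table of 28307 genes, and all 10 were present. The question was whether their RNA followed a sort on aldehyde dehydrogenase (ALDH) activity, which isolates CSC-enriched cells by an enzyme rather than by any of these markers.

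The breast cancer line SUM159 and the colon cancer line SW620 were grown adherent for 30 h with Nifuroxazide (NIF), a nitrofuran antibiotic, or with its vehicle DMSO. ALDHbr cells (high ALDH activity) and ALDHneg cells (low ALDH activity) were then sorted from each culture, so that under NIF the populations are those found in the gates after treatment. Each of the 8 groups held 3 libraries of total RNA from independent experiments (24 libraries in all), and each line is a single cell line standing for its tumour type. Raw read counts per library summed to between 30253187 and 43127948.

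CSC surface markers mostly bind matrix or neighbouring cells. CD44 is a receptor for hyaluronan and osteopontin, ITGA6 pairs with ITGB1 or ITGB4 to hold cells on laminin, ALCAM is a homophilic adhesion molecule, CD24 is a small glycosylated surface protein that ligates Siglec-10, CXCR4 is the receptor of the chemokine CXCL12, and PROM1 is a protein of membrane protrusions. SOX2 and KLF4 are transcription factors that take part in reprogramming to pluripotency, BMI1 is a subunit of Polycomb repressive complex 1, and NES marks neural stem and progenitor cells. In breast tumours the phenotype CD44-high, CD24-low is a classical CSC definition, whereas in colon tumours CD44, PROM1 and ALCAM have been used.

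The 4 genes CD44, CD24, PROM1 and CXCR4 were higher in ALDHbr than in ALDHneg SW620 cells and fell under NIF there, whereas KLF4 rose under NIF. Their promoters are shown because these are the members that moved together and the member with the largest rise in the same cells. Each line gives the 250 bases before the transcription start in the RefSeq promoter table (GRCh38.p14, where the submitters' processing notes name GRCh38), read 5′ to 3′ on the gene's strand in lower case. The windows are chr11:35138921-35139170 (plus strand) for CD44, chr6:106975628-106975877 (minus strand) for CD24, chr4:16084024-16084273 (minus strand) for PROM1, chr2:136118150-136118399 (minus strand) for CXCR4 and chr9:107489770-107490019 (minus strand) for KLF4. The CD24 window lies inside the span that RefSeq gives for the gene (chr6:106969831-106976855), and the other 4 directly adjoin their gene. Capitals mark a match, on either strand, to 1 of the 4 motifs described beneath the sequences.
CD44: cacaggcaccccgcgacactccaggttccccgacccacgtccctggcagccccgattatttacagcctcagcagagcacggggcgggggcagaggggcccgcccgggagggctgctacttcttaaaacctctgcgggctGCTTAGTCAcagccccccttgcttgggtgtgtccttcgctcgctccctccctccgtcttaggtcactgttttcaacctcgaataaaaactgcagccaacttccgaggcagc
CD24: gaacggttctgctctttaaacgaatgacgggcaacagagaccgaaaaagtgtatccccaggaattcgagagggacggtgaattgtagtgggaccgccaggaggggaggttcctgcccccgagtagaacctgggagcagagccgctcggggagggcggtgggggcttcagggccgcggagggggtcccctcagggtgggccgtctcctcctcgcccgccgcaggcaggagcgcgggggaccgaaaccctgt
PROM1: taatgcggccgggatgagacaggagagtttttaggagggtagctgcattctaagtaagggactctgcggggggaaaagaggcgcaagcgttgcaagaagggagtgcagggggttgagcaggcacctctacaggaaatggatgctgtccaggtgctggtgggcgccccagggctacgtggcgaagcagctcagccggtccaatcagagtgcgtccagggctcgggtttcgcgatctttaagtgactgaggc
CXCR4: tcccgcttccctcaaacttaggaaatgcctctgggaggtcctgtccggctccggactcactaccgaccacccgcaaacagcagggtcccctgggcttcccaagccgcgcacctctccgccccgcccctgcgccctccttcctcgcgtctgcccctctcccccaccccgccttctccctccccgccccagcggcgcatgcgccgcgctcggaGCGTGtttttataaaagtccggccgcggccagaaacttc
KLF4: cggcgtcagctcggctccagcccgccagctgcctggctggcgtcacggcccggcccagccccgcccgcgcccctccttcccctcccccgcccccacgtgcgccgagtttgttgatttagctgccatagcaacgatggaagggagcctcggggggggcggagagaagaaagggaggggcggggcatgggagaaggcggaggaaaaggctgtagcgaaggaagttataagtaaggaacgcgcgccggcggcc

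Motifs were searched on both strands and did not overlap one another in these windows. The STAT motif TTCNNNGAA was in none of the 10 members' windows and in 6.76% of 27305 RefSeq promoter windows of this length, and the AP-1 motif TGANTCA was in none and in 6.57%. The NRF2 motif TGACNNNGC was found in CD44 alone (as its reverse complement GCTTAGTCA, starting 111 bases before the start) and in 11.1% of all windows. The AHR motif GCGTG was in 4 members (ITGA6, ALCAM, CXCR4 and BMI1), against 31.9% of all windows. These are matches of letters, and no binding was measured.

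Levels were first compared per library, as CPM (normalised read counts, scaled to the library size after adjustment by the TMM method within each line). The members spanned from no read in a library to 781 CPM, and the lines differed widely. CD44 stood between 498 and 569 CPM in all 12 SUM159 libraries and between 126 and 340 CPM in the 12 SW620 libraries. CD24 stood between 4.47 and 20.5 CPM in SUM159 and between 173 and 516 CPM in SW620. SUM159 thus carried high CD44 beside low CD24, and SW620 carried both.

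PROM1 and CXCR4 were near 0 in SUM159. PROM1 had no read in 8 of 12 SUM159 libraries and at most 5 reads in any, against 389 to 1040 reads in SW620. CXCR4 had no read in 7 of 12 SUM159 libraries and at most 4 reads, against 256 to 526 reads in SW620. With the 3 DMSO libraries of each group pooled, the SW620 level of CXCR4 was 1000 times that of SUM159 in ALDHneg cells (95% exact interval 180 to 39700, on 1 SUM159 read). For PROM1 in the same cells the ratio was 426 (182 to 1310, on 5 SUM159 reads), and these intervals cover counting error only.

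SOX2 was barely detected in either line. It had 0 to 9 reads per library in SUM159 and 0 to 3 reads in SW620, where 3 reads correspond to about 0.1 CPM or less, and it was too low to be tested in any comparison. SOX2 lies within the span of the transcript SOX2-OT (chr3:181056680-181742228), which itself had at most 3 reads in any library. NES was low in SUM159, with 7 to 36 reads, and higher in SW620, with 57 to 165 reads. BMI1 had 104 to 160 reads in SUM159 and 47 to 97 reads in SW620. BMI1 overlaps the readthrough gene COMMD3-BMI1, which was listed at 0 in every library, and how the counting divided reads between them is not given in the sources used here.

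Per kilobase of annotated exon (the union of all exons of a gene in GENCODE), the scale on which genes can be set side by side, CD44 led in SUM159 ALDHbr cells under DMSO at 54.1 CPM per kb, before ITGA6 at 44.5, ALCAM at 11.6 and KLF4 at 9.83. In SW620 ALDHbr cells ITGA6 led the members given an exon length at 75.3 CPM per kb, before CD44 at 30.9, KLF4 at 4.92, CXCR4 at 4.41 and PROM1 at 3.57. BMI1 was at 0.862 CPM per kb in SUM159 and 0.464 in SW620, and SOX2 at 0.0585 and 0.0104. CD24 has near-identical copies in the genome and no single exon length was used for it, so it has no place in this order. Without scaling by length CD24 stood at 504 CPM in SW620 ALDHbr cells under DMSO, beside 503 CPM for ITGA6, so which of them leads there is not known.

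**Figure D1:**
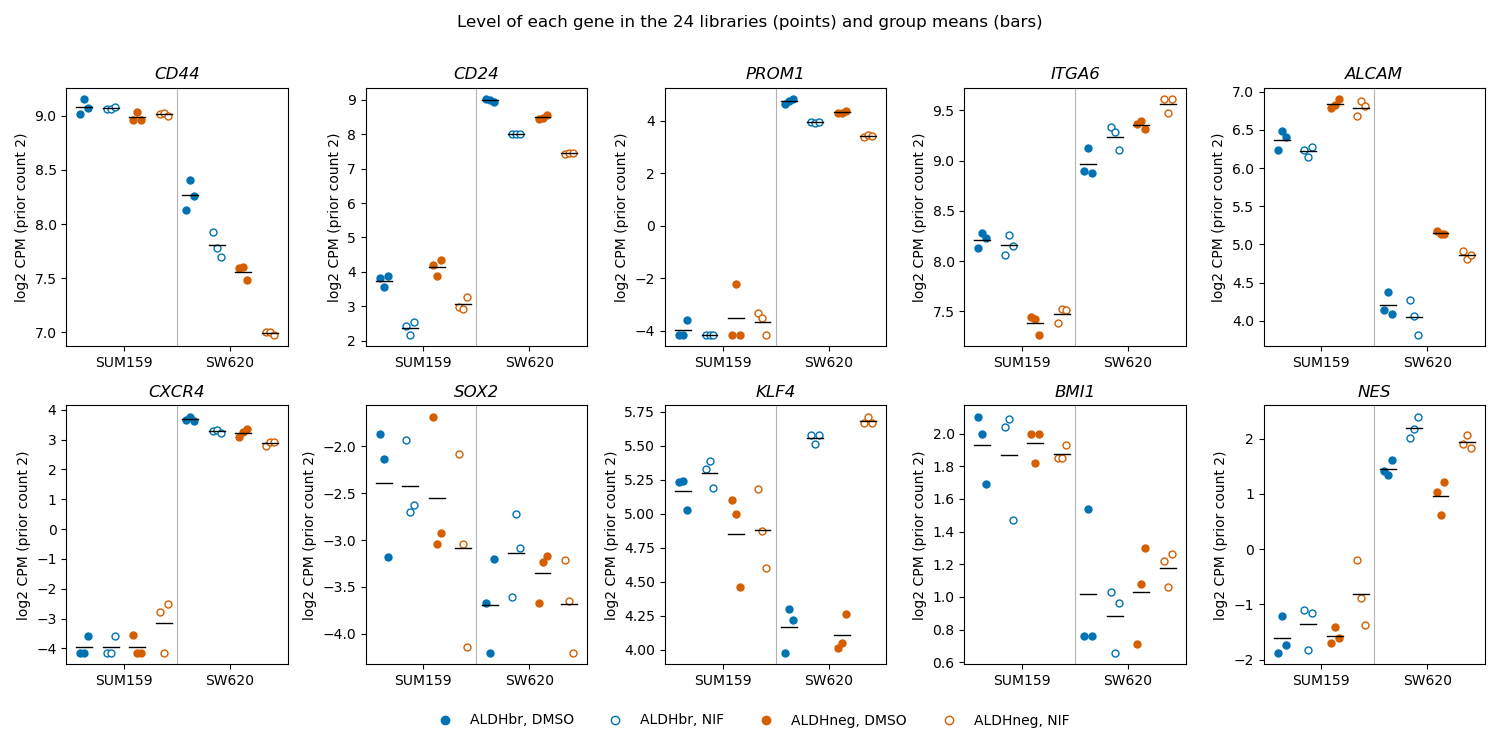
Level of each of the 10 genes in the 24 libraries, as log2 CPM with a prior count of 2 (vertical axis, its range set per gene), with SUM159 at the left and SW620 at the right of each panel. Points are libraries and bars are means of 3 (blue ALDHbr, orange ALDHneg, filled DMSO, open NIF). CD24 falls from filled to open points in every pair of groups, and ITGA6 is higher in ALDHbr than ALDHneg SUM159 cells but lower in SW620.

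The sort itself was checked on the ALDH genes. ALDH1A1 stood between 104 and 153 CPM in ALDHbr and between 0.419 and 0.542 CPM in ALDHneg SUM159 cells under DMSO. In SW620 it was high in both populations, at 1260 to 1360 CPM against 883 to 921 CPM. The gates therefore separated ALDH1A1 RNA far more widely in SUM159 than in SW620, where the log2 fold change was 0.54 (SE 0.05) as against 8.11 (SE 0.29). ALDH1A3, another aldehyde dehydrogenase, was higher in ALDHbr SUM159 cells at a low level (means of 0.62 against 0.202 CPM, log2 fold change 1.60, SE 0.44, edgeR adjusted p = 0.0158). This rested on 14 to 33 reads per ALDHbr and 5 to 11 reads per ALDHneg library. The ALDHbr group includes replicate 3, which had the highest colon marker sum in SUM159 (given below), and its part in this call was not tested. In SW620 under DMSO ALDH1A3 was far higher in level, and lower in ALDHbr cells (138 against 177 CPM, -0.36, SE 0.05, edgeR adjusted p = 0.000723), the opposite direction to ALDH1A1.

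In SUM159 cells under DMSO the sort divided 3 members in the main fit, which held no replicate block. ITGA6 was higher in ALDHbr cells, and ALCAM and CD24 were lower. All genes were tested by the quasi-likelihood test of edgeR, and a gene was called where its p, adjusted over all genes by Benjamini-Hochberg, was under 0.05. By this rule 1 member was called higher and 2 lower of the 7 tested, whereas 23% of all 14953 genes tested were called (10.7% higher and 12.3% lower). The median log2 fold change of the tested members was -0.01, against 0 for all genes.

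ITGA6, the laminin-binding integrin, stood at 280, 311 and 300 CPM in the ALDHbr libraries and at 175, 172 and 154 CPM in the ALDHneg libraries. The groups were far apart. The means were 297 ± 15.9 and 167 ± 11.3 CPM (SD, n = 3 each), and the log2 fold change was 0.83 (SE 0.07, edgeR adjusted p = 6.44e-07).

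ALCAM stood at 75.0, 89.4 and 84.5 CPM in ALDHbr and at 110.0, 114.0 and 119.0 CPM in ALDHneg cells, without overlap. The log2 fold change was -0.46 (SE 0.07, edgeR adjusted p = 0.000248).

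CD24 stood at 13.9, 11.7 and 14.7 CPM in ALDHbr and at 18.1, 14.7 and 20.5 CPM in ALDHneg cells. The lowest ALDHneg library thus lay at the level of the highest ALDHbr library. The log2 fold change was -0.41 (SE 0.14, edgeR adjusted p = 0.0447). CD24 was lower in the ALDHbr library of each same-numbered pair, and the log2 fold change was -0.40 both with the replicate block (edgeR adjusted p = 0.000417) and by DESeq2 (adjusted p = 0.0311). Without the block the call was near the threshold and was lost when ALDHbr replicate 1 or 2 or ALDHneg replicate 1 or 3 was left out (log2 fold changes -0.29 to -0.43, adjusted p between 0.0823 and 0.181), with library-size scaling (-0.44, 0.0554) and with only these 2 groups fitted (-0.41, 0.0585). ALDHbr replicate 3 carried a summed level of 8.24 CPM over 10 colon epithelial markers, against at most 0.821 CPM in the other SUM159 libraries. Of the 10 markers CDX1, CDX2, CDH17, GPA33 and TFF3 were under 10 reads in every SUM159 library, this one included. The source of the summed level was not tested. CD24 is high in SW620, and without ALDHbr replicate 3 its log2 fold change was -0.48 (edgeR adjusted p = 0.0486).

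CD44 did not pass the test, at 516 to 569 CPM in ALDHbr and 498 to 524 CPM in ALDHneg cells (log2 fold change 0.09, SE 0.05, edgeR adjusted p = 0.224). Its groups overlapped. The low CD24 of the ALDHbr cells was therefore not accompanied by a called difference of CD44. The CD44 count sums all splice forms, so a shift between isoforms cannot be seen here.

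KLF4 stood at 37.5, 37.7 and 32.7 CPM in ALDHbr and at 34.3, 31.8 and 22.0 CPM in ALDHneg cells. The groups overlapped, and the log2 fold change of 0.29 (SE 0.15) did not pass the test (edgeR adjusted p = 0.189). Same-numbered SUM159 libraries deviated together, and within each replicate number KLF4 was higher in ALDHbr cells. When the replicate number entered the fit as a block, the log2 fold change was 0.31 and was called (edgeR adjusted p = 0.00545), in a fit that called 36% of all genes.

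BMI1 (3.18 to 4.23 against 3.48 to 3.95 CPM) and NES (0.216 to 0.374 against 0.254 to 0.322 CPM) overlapped between the populations. Their log2 fold changes were -0.01 (SE 0.17) and -0.03 (SE 0.45). PROM1, CXCR4 and SOX2 were below the expression filter.

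Under NIF the SUM159 sort divided the same 3 members in the same directions, where 21.9% of all genes were called (9.95% higher and 12% lower). ITGA6 was at 267 to 307 CPM in ALDHbr and 167 to 184 CPM in ALDHneg cells (log2 fold change 0.69, SE 0.07, edgeR adjusted p = 4.51e-06). ALCAM was at 70.8 to 77.7 and 102.0 to 117.0 CPM (log2 fold change -0.57, SE 0.07, edgeR adjusted p = 4.11e-05). CD24 was at 4.47 to 5.77 and 7.49 to 9.62 CPM (log2 fold change -0.68, SE 0.15, edgeR adjusted p = 0.00396). None of these groups overlapped. CD44 did not overlap either, at 532 to 542 CPM in ALDHbr and 512 to 518 CPM in ALDHneg cells. It was not called (log2 fold change 0.06, SE 0.05, edgeR adjusted p = 0.488). BMI1 (0.02, SE 0.18) and NES (-0.67, SE 0.39) overlapped and were not called.

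KLF4 stood at 36.4 to 41.7 CPM in ALDHbr and 24.2 to 36.1 CPM in ALDHneg SUM159 cells under NIF, without overlap by a narrow margin. It was not called (log2 fold change 0.40, SE 0.15, edgeR adjusted p = 0.0734) but was with the replicate block (0.41, adjusted p = 0.000443). It was also called by DESeq2 (adjusted p = 0.0371).

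In SW620 cells the sort divided 6 of 9 tested members under DMSO, where 11.3% of all 13953 genes tested were called (5.45% higher and 5.86% lower). CD44, CD24, PROM1 and CXCR4 were higher in ALDHbr cells and ITGA6 and ALCAM were lower. The share over all genes moved most with 1 library, ALDHbr replicate 2, which stood apart from the other two (chi-square per gene 43.1 and 33.5, against 6.18 between those). It was 38.8% without that library and 5.03 to 5.45% without any other of the 6, while 7 members were called without it, NES being added. The median log2 fold change of the tested members was 0.43, against 0.01 for all genes.

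CD44 stood at 281, 340 and 307 CPM in ALDHbr and at 193, 193 and 179 CPM in ALDHneg libraries. No libraries overlapped, and the means were 309 ± 29.3 and 188 ± 8.18 CPM (SD, n = 3 each). The log2 fold change was 0.71 (SE 0.07, edgeR adjusted p = 3.58e-05).

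CD24 stood at 516, 505 and 490 CPM in ALDHbr and at 350.0, 358 and 374 CPM in ALDHneg SW620 libraries. It thus differed in the opposite direction to SUM159, with a log2 fold change of 0.48 (SE 0.04, edgeR adjusted p = 1.65e-05).

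PROM1, the CD133 antigen, stood at 25.0, 26.6 and 28.0 CPM in ALDHbr and at 19.2, 19.4 and 20.7 CPM in ALDHneg libraries (log2 fold change 0.43, SE 0.06, edgeR adjusted p = 0.000601). CXCR4, the chemokine receptor, stood at 12.7, 13.4 and 12.2 CPM and at 8.45, 9.55 and 10.1 CPM (log2 fold change 0.45, SE 0.08, edgeR adjusted p = 0.00322). Neither gene overlapped between the populations.

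ITGA6 was the reverse of SUM159, at 478, 560.0 and 470.0 CPM in ALDHbr and 656, 670.0 and 636 CPM in ALDHneg SW620 libraries (log2 fold change -0.38, SE 0.07, edgeR adjusted p = 0.00508). ALCAM stood at 17.5, 20.8 and 16.9 CPM in ALDHbr and at 35.9, 35.2 and 35.2 CPM in ALDHneg libraries. This was the widest sort difference of any member in SW620 under DMSO, at a log2 fold change of -0.94 (SE 0.10, edgeR adjusted p = 4.14e-05), although ALCAM is itself in use as a colon CSC marker.

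KLF4 (15.8 to 19.6 against 16.1 to 19.1 CPM) and BMI1 (1.64 to 2.85 against 1.59 to 2.41 CPM) overlapped between the SW620 populations, at log2 fold changes of 0.06 (SE 0.08) and 0.01 (SE 0.22). NES stood at 2.6, 2.5 and 3.03 CPM in ALDHbr and 2.0, 1.49 and 2.27 CPM in ALDHneg cells, without overlap. Its log2 fold change of 0.50 (SE 0.16) did not pass the test (edgeR adjusted p = 0.0627), but did with DESeq2 (0.044) and without ALDHbr replicate 2 (0.0263).

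Under NIF 6 members were again called by the sort in SW620, where 6.67% of all genes were called (3.41% higher and 3.26% lower, and 3.48 to 7.03% in all with a single library left out). CD44 was at 207 to 244 CPM in ALDHbr and 126 to 128 CPM in ALDHneg cells (log2 fold change 0.81, SE 0.07, edgeR adjusted p = 1.54e-05). CD24, PROM1 and CXCR4 were higher by log2 fold changes of 0.55 (SE 0.04), 0.51 (SE 0.07) and 0.40 (SE 0.08). ALCAM and ITGA6 were lower in ALDHbr cells, at log2 fold changes of -0.80 (SE 0.10) and -0.32 (SE 0.07). KLF4 (-0.13, SE 0.08) and BMI1 (-0.29, SE 0.22) did not overlap between the populations but were not called. NES (0.27, SE 0.14) overlapped and was not called.

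The smaller of these calls were near the threshold, with folds that moved little. ITGA6 (edgeR adjusted p = 0.0181) was not called without ALDHbr replicate 2 or 3 or ALDHneg replicate 1 or 3, at log2 fold changes of -0.26 to -0.34 and adjusted p between 0.0516 and 0.0848. It was called with the replicate block (0.0264) and by DESeq2 (0.00193). CXCR4 (edgeR adjusted p = 0.0105) was not called without ALDHneg replicate 1 (0.36, adjusted p = 0.0618) or when all 24 libraries shared a fit (0.40, adjusted p = 0.111), and was called with the block (0.0185) and by DESeq2 (0.00306).

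**Figure D2:**
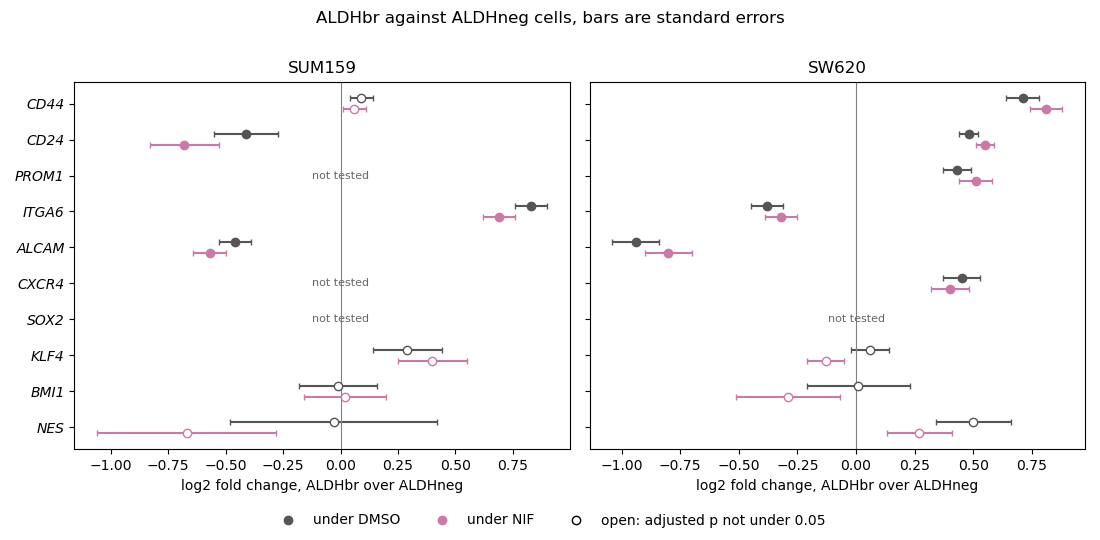
Log2 fold change of ALDHbr over ALDHneg cells for each gene in SUM159 (left) and SW620 (right), under DMSO (grey) and NIF (pink), with SE bars and filled points at an edgeR adjusted p under 0.05. ITGA6 is right of 0 in SUM159 (0.83 and 0.69) and left of it in SW620 (-0.38 and -0.32), CD24 is reversed in the opposite way, and ALCAM is left of 0 in both.

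The difference of the sort effect between the lines was tested directly, with all 24 libraries in 1 fit. Of 9 members tested 4 were called (PROM1 and CXCR4, which passed the filter through SW620 alone, were not among the 4), against 19.1% of 16271 genes (10.1% higher and 9.02% lower in SUM159). ITGA6 (SUM159 minus SW620 1.21 on the log2 scale, SE 0.11, edgeR adjusted p = 1.61e-08) and CD24 (-0.89, SE 0.13, adjusted p = 2.76e-05) differed in sign between the lines. CD44 (-0.62, SE 0.09, adjusted p = 2.73e-05) and ALCAM (0.48, SE 0.13, adjusted p = 0.00951) differed in size. ALCAM was lower in ALDHbr cells of each line under each treatment, and it was the only member called in the same direction in all 4 sort comparisons.

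Whether NIF altered the sort effect was tested as an interaction within each line. No member was called in SUM159 or in SW620 by edgeR, where 0% of SUM159 genes and 0.00717% of SW620 genes (1 gene) were called. At an unadjusted p under 0.05 there were 238 SUM159 and 771 SW620 genes, and no tested member was among them (lowest unadjusted p 0.174 for ITGA6 in SUM159 and 0.129 for KLF4 in SW620, edgeR). DESeq2 called 2 SUM159 genes and 29 SW620 genes, none of them a member. The members' differences of effect lay between -0.63 (NES, SE 0.60) and 0.10 (KLF4, SE 0.21) in SUM159 and between -0.30 (BMI1, SE 0.31) and 0.14 (ALCAM, SE 0.14) in SW620.

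NIF moved a single member in SUM159, and this was CD24. In ALDHbr cells CD24 stood at 5.29, 4.47 and 5.77 CPM under NIF and at 13.9, 11.7 and 14.7 CPM under DMSO. In ALDHneg cells it stood at 7.88, 7.49 and 9.62 CPM and at 18.1, 14.7 and 20.5 CPM. Every NIF library lay below every DMSO library of its population.

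The log2 fold change of CD24 was -1.37 in ALDHbr cells (SE 0.15, edgeR adjusted p = 9.43e-05) and -1.10 in ALDHneg cells (SE 0.14, edgeR adjusted p = 0.000597). Without the ALDHbr DMSO library with the highest colon marker sum (replicate 3) the former was -1.30 (adjusted p = 0.000434). This made 1 of 7 members called in each population, against 3.16% and 3.3% of all genes (1.46 to 2.12% and 1.27 to 3.82% with a single library left out). These shares split into 0.936% higher and 2.23% lower in ALDHbr cells and 1.1% higher and 2.2% lower in ALDHneg cells. With the replicate block the backgrounds were 13.3% and 13.2%, and still only CD24 was called.

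The other 6 tested members did not pass in SUM159. CD44 differed by -0.01 (SE 0.05) in ALDHbr and 0.02 (SE 0.05) in ALDHneg cells, ITGA6 by -0.06 and 0.09 (SE 0.07 each) and KLF4 by 0.13 and 0.03 (SE 0.15 each). NES had 36, 15 and 11 reads in ALDHneg cells under NIF and 9, 10 and 11 under DMSO, and its log2 fold change of 0.97 (SE 0.40) did not pass (edgeR adjusted p = 0.23). CXCR4 had 4, 0 and 4 reads against 1, 0 and 0, too few to test within SUM159.

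In SW620 NIF moved most of the members. In ALDHbr cells 7 of 9 were called, where 43.3% of all genes were (21.4% higher and 21.9% lower). In ALDHneg cells 8 of 9 were called, where 45.1% of all genes were (22.3% higher and 22.7% lower). CD24, PROM1, CD44 and CXCR4 fell and KLF4, NES and ITGA6 rose in both populations. ALCAM was called lower in ALDHneg cells only, and BMI1 in neither.

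CD24 stood at 254, 258 and 257 CPM under NIF and 516, 505 and 490.0 CPM under DMSO in ALDHbr cells, and at 173, 176 and 176 CPM against 350.0, 358 and 374 CPM in ALDHneg cells. The groups were tight and far apart. The log2 fold changes were -0.97 (SE 0.04, edgeR adjusted p = 9.12e-10) and -1.04 (SE 0.04, edgeR adjusted p = 3.47e-10). CD24 was the only member called in all 4 comparisons of NIF with DMSO, always lower under NIF.

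PROM1 stood at 15.2, 15.0 and 15.3 CPM under NIF and 25.0, 26.6 and 28.0 CPM under DMSO in ALDHbr cells (log2 fold change -0.81, SE 0.06, edgeR adjusted p = 2.11e-07). In ALDHneg cells it fell from 19.2 to 20.7 CPM to 10.4 to 10.8 CPM (log2 fold change -0.89, SE 0.06). ALDHbr cells under NIF thus held less PROM1 RNA than ALDHneg cells under DMSO, without overlap.

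CD44 stood at 244, 219 and 207 CPM under NIF and 281, 340.0 and 307 CPM under DMSO in ALDHbr cells (log2 fold change -0.47, SE 0.07, edgeR adjusted p = 0.000134). In ALDHneg cells it was at 128, 128 and 126 against 193, 193 and 179 CPM (log2 fold change -0.57, SE 0.07, edgeR adjusted p = 2.06e-05). CD44 kept an order of 4 separate levels, highest in ALDHbr cells under DMSO and lowest in ALDHneg cells under NIF. CXCR4 fell by 0.41 (SE 0.08) in ALDHbr and 0.36 (SE 0.08) in ALDHneg cells on the log2 scale, and its ALDHbr NIF libraries (9.34 to 9.84 CPM) overlapped the ALDHneg DMSO libraries (8.45 to 10.1 CPM).

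KLF4 made the largest change of any member under NIF. In SW620 ALDHbr cells it stood at 47.7, 45.5 and 47.9 CPM under NIF and 15.8, 19.6 and 18.5 CPM under DMSO. In ALDHneg cells it stood at 51.0, 52.4 and 50.8 CPM against 16.1, 16.6 and 19.1 CPM. The log2 fold changes were 1.39 (SE 0.08, edgeR adjusted p = 1.24e-08) and 1.58 (SE 0.08, edgeR adjusted p = 2.81e-09). SW620 libraries under NIF thus stood at 45.5 to 52.4 CPM, beside 22.0 to 41.7 CPM over all SUM159 libraries. CPM was scaled within each line, and the KLF4 level under NIF was not tested between the lines.

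NES stood at 4.01, 4.47 and 5.19 CPM under NIF and 2.6, 2.5 and 3.03 CPM under DMSO in SW620 ALDHbr cells (log2 fold change 0.75, SE 0.15, edgeR adjusted p = 0.00114). In ALDHneg cells its log2 fold change was 0.98 (SE 0.16, edgeR adjusted p = 0.000165). ITGA6 rose by 0.27 (SE 0.07, edgeR adjusted p = 0.00856) in ALDHbr cells, where the groups overlapped (553 to 645 against 470.0 to 560.0 CPM), and by 0.21 (SE 0.07, edgeR adjusted p = 0.0305) in ALDHneg cells. These were the smallest rises called.

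The ITGA6 call in ALDHneg cells was lost with library-size scaling (edgeR adjusted p = 0.153) and without any of ALDHneg DMSO replicates 1, 2 and 3 or NIF replicates 1 and 3 (0.0549 to 0.104). In ALDHbr cells it was at 0.0501 when only the groups compared were fitted. ALCAM in ALDHneg cells (28.0 to 30.0 against 35.2 to 35.9 CPM, log2 fold change -0.29, SE 0.10, edgeR adjusted p = 0.0243) was lost without any of DMSO replicates 1, 2 and 3 or NIF replicates 2 and 3 (0.0636 to 0.0867).

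**Figure D3:**
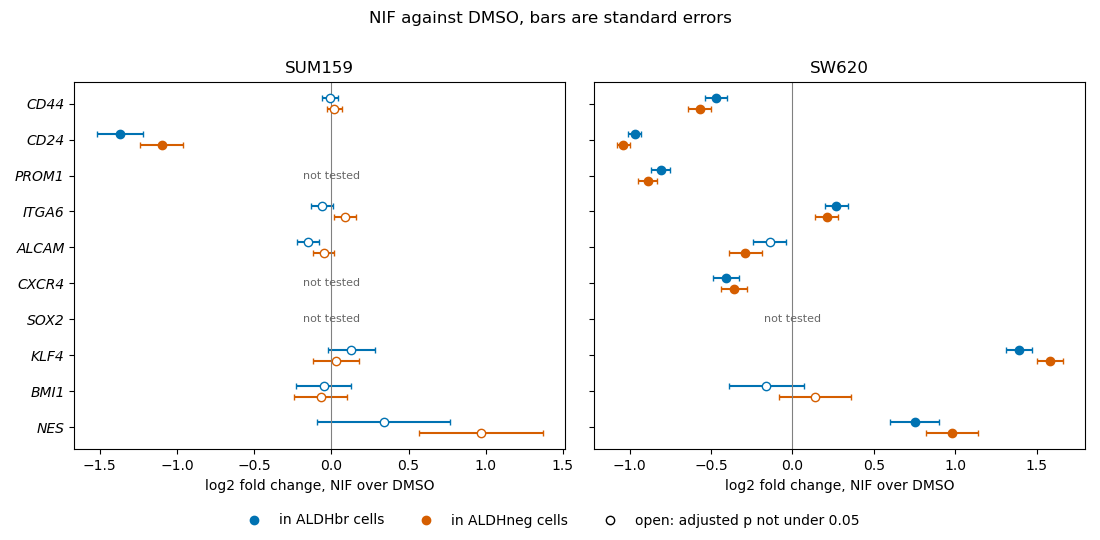
Log2 fold change of NIF over DMSO for each gene in SUM159 (left) and SW620 (right), in ALDHbr (blue) and ALDHneg (orange) cells, with SE bars and filled points at an edgeR adjusted p under 0.05. CD24 is left of 0 in all 4 comparisons (-1.37, -1.10, -0.97 and -1.04), and KLF4 is at 1.39 and 1.58 in SW620 but at 0.13 and 0.03 in SUM159.

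The difference of the NIF effect between the lines was tested after these values had been seen. In ALDHbr cells 4 of 9 members were called, against 23.1% of all genes (10.7% higher and 12.4% lower in SUM159). In ALDHneg cells 3 of 9 were called, against 22.4% (10.5% higher and 11.9% lower). The 9 include PROM1 and CXCR4, which passed the filter through SW620 alone. CXCR4 is 1 of the 3, but its NIF effect was not measurable in SUM159 and no difference is read from it, which leaves CD44 and KLF4. KLF4 differed by -1.26 (SE 0.19, edgeR adjusted p = 2.34e-05) in ALDHbr and -1.56 (SE 0.19, edgeR adjusted p = 1.21e-06) in ALDHneg cells (SUM159 minus SW620), and CD44 by 0.46 and 0.58 (SE 0.09 each). CD24 differed in ALDHbr cells by -0.40 (SE 0.14, edgeR adjusted p = 0.0451), near the threshold, and in ALDHneg cells by -0.06 (SE 0.13), and ITGA6 in ALDHbr cells by -0.32 (SE 0.11, edgeR adjusted p = 0.0302).

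Between the lines under DMSO all 9 tested members were called, as were 86.6% of all genes (45.2% higher and 41.4% lower in SUM159). The 9 include PROM1 and CXCR4, which passed the filter through SW620 alone, so their calls here add nothing to the read counts given above. ALCAM, CD44, BMI1 and KLF4 were higher in SUM159, at log2 fold changes of 1.75 (SE 0.06), 0.94 (SE 0.05), 0.73 (SE 0.14) and 0.71 (SE 0.10). ITGA6, NES and CD24 were higher in SW620, at -1.54 (SE 0.05), -3.20 (SE 0.20) and -4.96 (SE 0.07), as were PROM1 and CXCR4. Library-size scaling moved the median of all genes from 0.06 to 0.22 in this comparison, and all 9 members were called with it too.

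Across the 12 SW620 libraries several members ran together. The correlation of log2 CPM was 0.99 between CD24 and PROM1, 0.95 between CD44 and CXCR4, 0.92 between PROM1 and CXCR4 and 0.91 between CD24 and CXCR4. Other pairs ran opposite, as CD24 and KLF4 (-0.89) and ITGA6 and CXCR4 (-0.88). The 12 points share the 4 groups of 3, so these values describe the group pattern. In SUM159 the strongest were -0.90 between ITGA6 and ALCAM, 0.79 between CD44 and ITGA6 and -0.78 between ALCAM and KLF4.

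The genes of all those tested with the pattern most like a member's were ranked by the same correlation over 12 libraries, among genes at a mean log2 CPM of at least 1. In SW620 CD24 was most like TSPAN8 (a tetraspanin, r = 0.996), PROM1 most like UGT1A8 (a glucuronidating enzyme, 0.995) and CD24 (0.994), CD44 most like the mucin genes MUC13 and MUC3A (0.986 each) and KLF4 most like the cell cycle inhibitor CDKN1A (0.996). ALCAM was most like the Polycomb gene CBX6 (0.981), and NES most like NINJ1 (0.982). In SUM159 ITGA6 was most like PXN (paxillin, 0.984), CD24 most like CLASP1 (0.982) and ALCAM most like DOCK11 (0.978). Here too the 12 points of a line share its 4 groups, so the values describe the group pattern. In the main fit KLF4 and NES were called under NIF in SW620 but not by the sort. No link between the genes of a pair was tested.

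Receptors act through ligands and partners, so these were counted too. In a list of 20 ligands, partners and splicing regulators of the surface members, 7 of 17 tested were higher and 1 lower in ALDHbr SUM159 cells under DMSO (median log2 fold change 0.24, against 0 for all genes, of which 10.7% were higher and 12.3% lower). In SW620 none of 17 was higher and 7 were lower (median -0.20, against 0.01 for all genes, of which 5.45% were higher and 5.86% lower). By the test of the difference between the lines 9 of 19 were higher in SUM159 and none was lower, against 10.1% and 9.02% of all genes. ITGB4, the partner of ITGA6 (chr17:75721459-75757818), stood at means of 151 against 7.55 CPM in SUM159 (log2 fold change 4.33, SE 0.21, edgeR adjusted p = 1.75e-09) and 379 against 490 CPM in SW620 (-0.37, SE 0.06, adjusted p = 0.00143).

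The hyaluronan synthase HAS3, which makes the ligand of CD44, stood at 21.8 against 2.78 CPM in ALDHbr and ALDHneg SUM159 cells under DMSO (log2 fold change 2.98, SE 0.14). The CXCR4 ligand CXCL12 was lower in ALDHbr SUM159 cells (-0.74, SE 0.25, edgeR adjusted p = 0.0469), with overlapping groups. Under NIF 11 of 17 of this list were higher and 1 lower in SW620 ALDHbr cells, where 21.4% and 21.9% of all genes were, and 12 and 2 in ALDHneg cells, where 22.3% and 22.7% were. The CD44 ligand SPP1 (osteopontin) rose in these ALDHbr cells at a low level, 1.52 against 0.147 CPM (3.30, SE 0.46). The laminin subunit LAMA3 rose too, at 184 against 50.9 CPM (1.86, SE 0.11), and CD44 itself fell there. In SUM159 LAMB3 fell under NIF in both populations (-0.53 and -0.59, SE 0.11 each) and HAS3 in ALDHbr cells (-0.66, SE 0.12).

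Of 28 other surface proteins that have been used to enrich stem-like cells, 7 of 24 tested were higher and 4 lower in ALDHbr SUM159 cells under DMSO, where 10.7% and 12.3% of all genes were. Apart from ITGB4, the integrin ITGA2 (1.63, SE 0.10) and the syndecan SDC1 (1.53, SE 0.08) were highest and the melanoma cell adhesion molecule MCAM was lowest (-3.83, SE 0.18, 6.64 against 95.1 CPM). In SW620 6 of 21 tested were higher and 3 lower, where 5.45% and 5.86% of all genes were. The intestinal stem cell receptor LGR5 (18.7 against 12.7 CPM, 0.56, SE 0.09) and TSPAN8 (321 against 197 CPM, 0.70, SE 0.08) were higher in ALDHbr cells. MCAM was also higher there (0.77, SE 0.17), at a low level of 3.40 against 1.98 CPM.

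Under NIF LGR5 fell by 2.44 (SE 0.10) in ALDHbr and 3.22 (SE 0.12) in ALDHneg SW620 cells on the log2 scale, and TSPAN8 by 1.42 and 1.53 (SE 0.08 each). The complement inhibitor CD55 rose by 2.02 and 2.40 (SE 0.05 each). In all, 9 of the 21 were higher and 8 lower in ALDHbr cells (21.4% and 21.9% of all genes) and 7 and 7 in ALDHneg cells (22.3% and 22.7%). In SUM159 none rose and 2 of 24 fell in each population (2.23% and 2.2% of all genes were lower), ANPEP by 0.58 and 0.61 (SE 0.07 each) among them.

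Of 20 genes of the pluripotency network around SOX2 and KLF4, 10 could be tested in each line. In ALDHbr SUM159 cells under DMSO 1 was higher and 1 lower, where 10.7% and 12.3% of all genes were. KLF5 was higher (68.8 against 54.4 CPM, 0.34, SE 0.11, edgeR adjusted p = 0.0359), with overlapping groups. KLF2 was lower (-2.28, SE 0.24, 3.09 against 15.1 CPM). In SW620 MYC alone was called (325 against 293 CPM, 0.15), beside 11.3% of all genes. In SW620 NIF lowered POU5F1 (-1.01, SE 0.26) and NR5A2 (-1.59, SE 0.15) and raised KLF2 (0.95, SE 0.19) and MYC (0.18, SE 0.04) in ALDHbr cells, where 21.4% of all genes were higher and 21.9% lower. In ALDHneg SW620 cells NIF lowered 6 of 10 and raised 2 of 10, against 22.7% lower and 22.3% higher over all genes. In SUM159 ALDHbr cells NIF raised KLF2 alone (1.18, SE 0.25), beside 3.16% of all genes called.

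Of 20 Polycomb genes, the partners of BMI1 among them, 4 were higher and 3 lower in ALDHbr SUM159 cells under DMSO, where 10.7% and 12.3% of all genes were, led by PHC1 (0.65, SE 0.11) and by CBX7 (-0.46). In SW620 EED was higher (0.30, SE 0.09, with overlapping groups) and CBX6 lower (-0.54, SE 0.07), or 2 of 20 beside 11.3% of all genes. Under NIF 3 were higher and 4 lower in SW620 ALDHbr cells, beside 43.3% of all genes called, among them EZH1 (0.58, SE 0.07) and EZH2 (-0.35, SE 0.05). JARID2 alone fell in SUM159 ALDHbr cells (-0.53, SE 0.08), and none was called in ALDHneg cells, beside 3.16% and 3.3% of all genes.

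Among 20 SOX, KLF, filament and other stem-linked relatives, 2 of 17 tested were higher and 6 lower in ALDHbr SUM159 cells under DMSO, where 10.7% and 12.3% of all genes were. Those lower included GLI2 (-1.35, SE 0.22), the filament SYNM (-0.94, SE 0.12) and SOX9 (-0.86, SE 0.23, with overlapping groups). In SW620 none of 14 was higher and GLI2 (-0.99, SE 0.13), GLI1 (-0.73, SE 0.12) and HMGA2 (-0.65, SE 0.08) were lower, where 5.45% and 5.86% of all genes were. GLI2 was thus lower in ALDHbr cells of each line. Under NIF 7 of 14 were higher and 2 lower in SW620 ALDHbr cells, where 21.4% and 21.9% of all genes were, and none was called in SUM159.

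Markers of cell state also moved with the sort. In SUM159 6 of 10 mesenchymal markers were lower in ALDHbr cells under DMSO, where 12.3% of all genes were lower and 10.7% higher. The summed level of the 10 was 7410 to 8570 CPM against 8530 to 9600 CPM in ALDHneg cells. Of 4 tested basal breast markers 3 were higher (summed level of 5 markers 409 to 419 against 278 to 338 CPM). The summed level of 6 leukocyte markers was 14.9 to 15.4 CPM in ALDHbr and 25.3 to 31.8 CPM in ALDHneg SUM159 cells, and 1 of 3 tested was lower. Of 4 tested luminal breast markers 1 was lower and none was higher. In SW620 4 of 10 colon epithelial markers were higher (summed 2160 to 2290 against 1910 to 1950 CPM) and 3 of 5 tested mesenchymal markers lower. There 5.45% of all genes were higher and 5.86% lower. Of 5 tested luminal markers 1 was higher and 1 lower, as was the case for 2 tested basal markers. The part of these markers in the sort differences of ITGA6, CD24, CD44 and ALCAM was not tested.

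The labels of the lines were checked on the same lists. All 10 mesenchymal markers exceeded 1 CPM in every SUM159 library, against 2 of 10 in SW620. In SW620 6 of 10 colon epithelial markers exceeded 1 CPM in every library, against none in SUM159. The breast lists held expressed genes in both lines. In SUM159 4 of 7 luminal and 2 of 5 basal breast markers exceeded 1 CPM in every library, and in SW620 5 and 2 did, with a summed luminal level of 530 to 826 CPM in SUM159 and 9820 to 13800 CPM in SW620. ESR1 and PGR were under 10 reads in every library of both lines. The summed level of 6 leukocyte markers was 12.0 to 36.6 CPM over all libraries, with CD3E and MS4A1 under 10 reads throughout and PTPRC under 10 in SW620, and that of 4 endothelial markers was at most 0.958 CPM. Under NIF in SW620 21.4% of all genes were higher and 21.9% lower in ALDHbr cells, and 22.3% and 22.7% in ALDHneg cells. Beside these shares 2 of 3 tested leukocyte markers rose in each population (summed 30.9 to 33.7 against 16.4 to 18.9 CPM in ALDHbr cells), as did 2 of 2 tested basal breast markers (153 to 204 against 70.0 to 118 CPM). Of 5 tested luminal markers 4 fell in each population. Of 10 colon epithelial markers 2 rose and 4 fell in ALDHbr cells, and 2 rose and 2 fell in ALDHneg cells. Their summed level was nonetheless higher under NIF, at 2410 to 2500 against 2160 to 2290 CPM in ALDHbr cells. In ALDHneg cells it was 2120 to 2180 against 1910 to 1950 CPM. The summed mesenchymal level in ALDHbr cells was 32.6 to 36.2 CPM under NIF and 14.8 to 17.6 CPM under DMSO, with 2 of 5 tested higher and 1 lower. The part of these markers in the NIF differences was not tested. In bulk RNA, fewer cells carrying a transcript and less of it per cell cannot be told apart.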

How the data were processed

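RNA of SUM159 and SW620 cells was sequenced as 24 libraries in 8 groups of 3. The authors deposited raw read counts for 28307 genes, of which 4579 had no count. The submitters' processing notes name FastQC, STAR and the build GRCh38. The library kit was stranded, but the counting tool and its strand setting are not given in the sources used here, so overlapping and near-identical genes (SOX2, BMI1, CD24) are uncertain. Total counts had a median of 36520935. Counts of replicates differed beyond sampling noise (chi-square divided by the number of genes 1.95 to 43.1 in 24 pairs), and each library was counted as a separate sample.

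The 10 members, the lists and the comparisons were chosen with earlier results of these data known. Tests were run in edgeR 4.0.16 under R 4.3.3 (filterByExpr by group, TMM, glmQLFit and glmQLFTest), each line apart with 12 libraries in 4 groups, and all 24 libraries together for comparisons between lines. SEs were taken from the log2 fold change and its F statistic. The difference of the NIF effect between lines was tested after values had been seen. From each list and comparison, up to 3 called genes at the extremes in each direction were eligible to be named, beside the members and the ALDH genes, and some genes that this selects are not reported here. CPM per kb uses the exon union of GENCODE (GRCh37 lift), for length alone.

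Same-numbered SUM159 libraries deviated together from their group means (correlation 0.125 to 0.451, over 0.1 in each of 18 pairs). The main fits held no replicate block, so their SUM159 calls do not use this pairing. The block was run as an alternative, and it added KLF4 to both SUM159 sort comparisons.

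The alternatives tried were another tool (DESeq2 1.42.0), other scalings (RLE size factors or library size alone), other filters (none, or 10 counts in each library), other sets of libraries (only the groups compared, all 24, or all but a single library), the replicate number as a block, and a minimum log2 fold change of 1 in either direction. The steps were tested on simulated data.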

Additional observations from a re-analysis of the deposited data

Results flagged for a closer look

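The effect of the sort differed between the lines by a direct test (SUM159 minus SW620 on the log2 scale, under DMSO, in edgeR with all 24 libraries) for 4 of 9 members, where 19.1% of all genes were called. The differences were -0.62 for CD44, -0.89 for CD24, 1.21 for ITGA6 and 0.48 for ALCAM. For CD24 and ITGA6 the sort effect had opposite signs in the lines. The gates separated ALDH1A1 by a log2 fold change of 8.11 in SUM159 and 0.54 in SW620, and its part in these differences was not tested.

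The effect of NIF differed between the lines in ALDHbr cells by 0.46 for CD44, -0.40 for CD24, -0.32 for ITGA6 and -1.26 for KLF4, and in ALDHneg cells by 0.58 for CD44 and -1.56 for KLF4, in tests chosen after the values had been seen. For CXCR4 in ALDHneg cells the fit gave 2.92 (SE 0.97, edgeR adjusted p = 0.0306), but SUM159 had 4, 0 and 4 reads under NIF against 1, 0 and 0 under DMSO, the gene passed the filter through SW620 alone, and no difference between the lines is read from it. The values of CD24 and ITGA6 in ALDHbr cells were near the threshold (edgeR adjusted p = 0.0451 and 0.0302). That of CD24 was not called without the SUM159 ALDHbr DMSO library with the highest colon marker sum.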

How the results depend on the processing

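With a minimum absolute log2 fold change of 1, no member was called in any of the 4 sort comparisons (0 of each), 1 was called for NIF in SW620 ALDHbr and 2 in ALDHneg cells. Leaving out each library gave 2 to 3 members for the SUM159 sort under DMSO and 3 to 4 under NIF, 6 to 7 and 4 to 6 for the SW620 sort, and 6 to 7 for NIF in SW620 ALDHneg cells. For the difference of the NIF effect between lines it gave 2 to 4 in ALDHbr and 2 to 3 in ALDHneg cells. In ALDHbr cells the count was 2 (CD44 and KLF4) without SUM159 NIF replicate 1, SW620 DMSO replicate 1 or 3, or SW620 NIF replicate 1 or 2. Counts for NIF in SUM159, for the lines under DMSO and for the difference of the sort effect between lines or treatments did not change under any alternative run.

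The SUM159 replicate block added KLF4 to both sort comparisons, making 4 called each, and changed no other member's call there. In SW620 same-numbered libraries did not deviate together (1 of 18 pairs over 0.1, correlation -0.278 to 0.214), and the block left 6 members called in each sort comparison. Over all genes the SUM159 block raised the share called from 23% to 36% for the sort and from 3.16% to 13.3% for NIF in ALDHbr cells.

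No called value changed sign. Uncalled log2 fold changes near 0 did. BMI1 in the SUM159 sort became 0.0017 with no filter under DMSO and -0.0185 with library-size scaling under NIF, and in the SW620 sort -0.0011 with library-size scaling and -0.0018 with no filter. Leaving out a library moved BMI1 between -0.0955 and 0.11 in the SUM159 sort under DMSO, -0.0834 and 0.19 under NIF, -0.31 and 0.15 in the SW620 sort under DMSO, -0.16 and 0.13 with NIF in SUM159 ALDHbr, -0.31 and 0.16 with NIF in SW620 ALDHbr and -0.0031 and 0.29 with NIF in SW620 ALDHneg cells. It moved NES between -0.28 and 0.11 in the SUM159 sort under DMSO, KLF4 between -0.0222 and 0.15 in the SW620 sort under DMSO and between -0.15 and 0.16 with NIF in SUM159 ALDHneg cells, ALCAM there between -0.0928 and 0.0033, and CD44 with NIF in SUM159 ALDHbr cells between -0.0463 and 0.0264. The cause was not tested. Depth limits PROM1, CXCR4 and SOX2 in SUM159, where at most 9 reads per library were found.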
